A study of Mus musculus with 6 samples.

Results

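CD8 alpha-beta T cells were examined in single-cell RNA-seq libraries of mouse small bowel mucosa, prepared from IE-HuR-/- animals and their control littermates. Members were chosen on their own reads. A barcode was kept when it held at least 1000 UMIs (unique molecular identifiers, each counting 1 captured RNA molecule) and at most 25% mitochondrial UMIs. It also needed at least 2 UMIs summed over Cd3d, Cd3e and Cd3g, at least 1 Cd8a UMI and at least 1 UMI of Trac, Trbc1 or Trbc2, and no UMI of Trdc, Cd4 or Vil1. The rule found 884 cells among 60706 barcodes, which was 2.51% of the 35259 barcodes that passed the depth and mitochondrial limits and 30.2% of the 2925 T cells. Of these members, 194 held at least 1 UMI of Cd8b1, the gene of the CD8 beta chain, and 690 held none.

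Control mice carried HuR fl/fl alleles without Cre, although the labels call them wild-type. IE-HuR-/- mice were HuR fl/fl mice crossed with villin-Cre mice, so that Elavl1, the gene of the RNA-binding protein HuR, was targeted in intestinal epithelial cells, and other cells of these mice, T cells included, carried the same alleles and transgene. All were on a C57BL/6 background, matched for age and gender at 6 to 8 weeks. The methods state that food was withheld for 24 h before experiments, whereas the labels state normal feeding. Mucosa was chelated in EDTA for 90 min, the pellet was dissociated in TrypLE for 10 min, and flow cytometry was used to check EPCAM purity and the absence of CD45 and CD90 before loading, with no sort described. The tissue is labelled small intestinal epithelium, and 2925 barcodes nevertheless met the T cell limits.

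CD8 T cells of the gut epithelium, the intraepithelial lymphocytes, fall into conventional and natural kinds. Conventional CD8 T cells pair a CD8 alpha with a CD8 beta chain, are selected in the thymus as ordinary cytotoxic T cells and enter the gut after priming. Natural intraepithelial lymphocytes carry CD8 alpha homodimers, are low in Thy1, Cd5, Cd2 and Cd28, and express receptors and signalling adaptors otherwise known from natural killer cells.

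The 3 control libraries held 79794848, 91818560 and 66396951 UMIs and gave 134, 125 and 101 members. The 3 libraries labelled IE-HuR-/- held 59518012, 65526044 and 65925616 UMIs and gave 174, 182 and 168 members. Members had a median of 4528 UMIs and 1832 detected genes per cell. Depth was alike in the classes, with a median of 4377 UMIs in Cd8b1-positive and 4555 in Cd8b1-negative cells. Cd8b1-positive cells were few in the controls, 12, 6 and 14, against 56, 57 and 49 in the libraries labelled IE-HuR-/-, while Cd8b1-negative cells numbered 122, 119 and 87 against 118, 125 and 119. The control sums of Cd8b1-positive cells therefore rest on 61542, 22860 and 82399 UMIs, against 251744, 304486 and 220424. Between 22 and 44 barcodes were shared by each pair of libraries, and 12 member barcodes also occurred in another library, of which 0 were members there. The study's figure legends speak of means over animals, but the labels tie no library to an animal, so p-values measure the spread between these libraries, which may be technical in part.

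Levels below are UMIs scaled to 1000000 UMIs of the summed cells of a library (CPM), given as mean ± SD. The genes that set the gate are described without a test. Cd8a was at 1405 ± 80.6 CPM in controls and 1425 ± 53.5 in libraries labelled IE-HuR-/- (SD, n = 3 each). Trac was at 597 ± 19.8 and 731 ± 30.4, and Trbc2 at 1528 ± 50.4 and 1432 ± 42.8. The gate required these genes, so their presence does not check the name. Cd8b1, which the rule did not require, was found in 194 of the 884 members, so the gene of the CD8 beta chain was seen in a minority of the cells named for it.

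At the edges of the gate, 91 members held exactly 1 Cd8a UMI, and 170 barcodes failed only for want of one. Another 1382 barcodes failed only because they held a Trdc UMI, the constant gene of the T cell receptor delta chain, and 1196 only because they held a Vil1 UMI, an epithelial gene. Receptor V genes were sparse, with 170 Trav and 138 Trbv UMIs over all members. Trav16n led the alpha V genes with 29 UMIs, followed by Trav16 (27), Trav19 (12), Trav6-7-dv9 (8) and Trav5-4 (7). Trbv3 led the beta V genes with 23 UMIs, followed by Trbv19 (17), Trbv16 (14), Trbv13-1 (13) and Trbv2 (11). None of these V genes took most of the UMIs of its family.

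Elavl1 was read first as a check of the labels. In members it was at 72.6 ± 9.58 CPM in controls and 85.3 ± 14.8 in libraries labelled IE-HuR-/- (SD, n = 3 each; log2 difference 0.19, SE 0.186, adjusted p = 0.814, edgeR's quasi-likelihood test). In epithelial barcodes (at least 1 Vil1 and 1 Epcam UMI, no CD3 UMI), where the Cre acts, it was at 30.2 ± 0.82 and 31.4 ± 0.486. The Elavl1 count was thus not lower in the epithelial barcodes of libraries labelled IE-HuR-/-. The counts do not say which part of the gene was read, so they do not check the deletion. In Cd8b1-positive cells Elavl1 rested on 2, 0 and 3 UMIs in controls against 18, 23 and 34, and the difference of 1.64 on the log2 scale did not pass the test (adjusted p = 0.241). In Cd8b1-negative cells it was at 77.6 ± 10.7 and 79.6 ± 8.61.

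The share of CD8 alpha-beta T cells and of Cd8b1-positive cells among them was compared between labels. Members made up 2.03%, 1.47% and 2.45% of quality-filtered barcodes in controls and 3.42%, 3.27% and 3.13% in libraries labelled IE-HuR-/-. All 3 libraries labelled IE-HuR-/- lay above all controls, with means of 3.27% ± 0.144 and 1.98% ± 0.493 (SD, n = 3; log2 ratio 0.72). The exact two-sided permutation test gave p = 0.1, the smallest it allows with 3 against 3, and 0.150 after Benjamini-Hochberg adjustment over the 3 shares compared. T cells of all kinds were at 7.22% ± 2.17 of these barcodes in controls and 10.2% ± 0.583 in libraries labelled IE-HuR-/- (SD, n = 3), which overlapped. Among T cells alone the member shares were 31.2%, 26.8% and 25.4% in controls and 32.5%, 34.3% and 29.8% in libraries labelled IE-HuR-/-. These overlapped, at 27.8% ± 3.02 against 32.2% ± 2.29 (SD, n = 3; exact permutation p = 0.2, adjusted 0.2). CD4 T cells were 1.63%, 0.428% and 1.01% of T cells in controls and 4.29%, 3.96% and 3.90% in libraries labelled IE-HuR-/-, without overlap. They numbered 7, 2 and 4 against 23, 21 and 22, so a higher share in these libraries was not particular to members. When every barcode was thinned to 1000 UMIs before the gate, the member shares among T cells were 27.6% ± 0.169 and 30.9% ± 1.39 and did not overlap (exact permutation p = 0.1). Thinning also took away Trdc, Cd4 and Vil1 UMIs, which exclude cells. The gate then held 1439 cells against 884, so these shares do not describe the same cells.

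Cd8b1-positive cells were 8.96%, 4.8% and 13.9% of members in controls and 32.2%, 31.3% and 29.2% in libraries labelled IE-HuR-/-. The groups did not overlap, with 9.21% ± 4.54 against 30.9% ± 1.55 (SD, n = 3; log2 ratio 1.75, exact permutation p = 0.1, adjusted 0.150). After every member was thinned to 1000 UMIs, the shares were 5.76% ± 3.26 and 15.1% ± 0.615. When every barcode was thinned to 1000 UMIs before the gate, 1439 cells met it and the shares were 2.36% ± 0.733 and 11.6% ± 1.17. As above, these were not the same cells, since excluding UMIs were thinned too. Counted against all quality-filtered barcodes, Cd8b1-positive cells were at 0.197% ± 0.135 and 1.01% ± 0.0941, and Cd8b1-negative cells at 1.79% ± 0.361 and 2.26% ± 0.0526.

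For background, a Cd8b1 UMI was found in 110 of 18909 epithelial barcodes (0.582%, median 5873 UMIs), in 2 of 79 CD4 T cells (2.53%) and in 11 of 116 gamma-delta T cells (9.48%). The member shares in all 6 libraries lay above the epithelial and CD4 shares. The CD4 share rests on 2 cells, however, and its binomial interval of 0.308% to 8.85% covers the 4.8% of control 2. The gamma-delta share lay above control 1 (8.96%) and control 2 (4.8%), and below control 3 (13.9%) and every library labelled IE-HuR-/-. Shares in these controls were thus not all above background. Cd8b1 in gamma-delta cells itself differed by label, with 1, 0 and 0 UMIs in the controls and 11, 5 and 10 in the libraries labelled IE-HuR-/-. In gamma-delta cells it was at 7.73 ± 13.4 and 104 ± 32 CPM, and in barcodes that failed the gate by a Trdc UMI alone at 6.98 ± 4.49 and 25.7 ± 14.3, both without overlap. In epithelial barcodes it was at 0.997 ± 0.101 and 2.15 ± 1.31 CPM, which overlapped. The part of these levels in the member shares was not tested. Within Cd8b1-positive cells the level of Cd8b1 itself was 717 ± 84.1 CPM in controls and 669.9 ± 55 in libraries labelled IE-HuR-/-. These cells were chosen for holding the RNA. Over all members Cd8b1 was at 75.8 ± 52.8 and 205 ± 15.4 CPM, a difference of 1.43 on the log2 scale that edgeR did not call (adjusted p = 0.327).

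**Figure D1:**
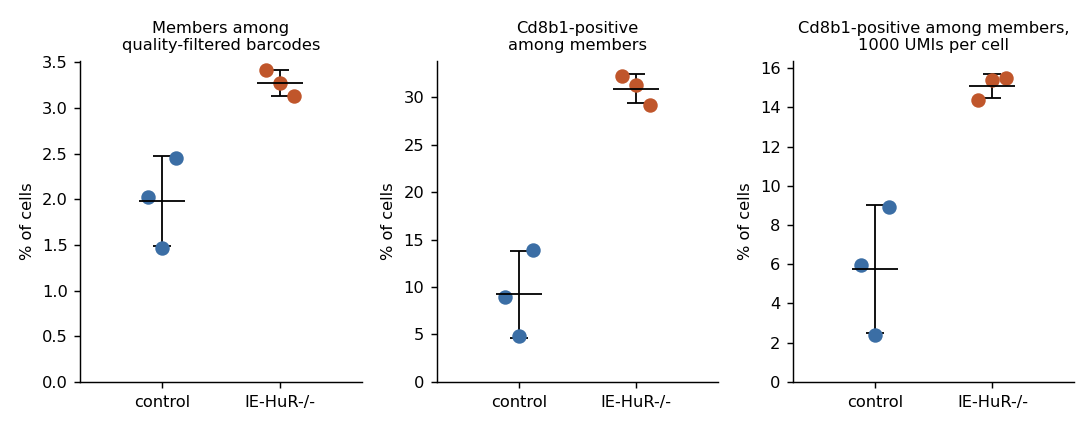
CD8 alpha-beta T cells as a percent of quality-filtered barcodes (left), and Cd8b1-positive cells as a percent of members with all UMIs (middle) and with 1000 UMIs per cell (right), on the y axes, for the 3 control libraries and the 3 libraries labelled IE-HuR-/- on the x axes. Points are libraries, bars are means and error bars are SD; in all 3 panels every library labelled IE-HuR-/- lies above every control.

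Cd8b1-positive and Cd8b1-negative members were then set apart by genes that the rule did not use. Tyrobp and Fcer1g encode the ITAM-bearing adaptors through which many natural killer receptors signal, and Cd5 and Cd6 encode surface receptors that tune T cell receptor signalling. Of cells with no Cd8b1 UMI, 85.5% held a Tyrobp or Fcer1g UMI and 7.25% a Cd5 or Cd6 UMI. Of cells with 1 Cd8b1 UMI the shares were 25% and 59.6%, with 2 to 3 UMIs 8.7% and 81.2%, and with 4 or more 4.11% and 86.3%. These shares pool the cells of all libraries, whose labels differ in their part of Cd8b1-positive cells. By library, 0%, 33.3% and 14.3% of Cd8b1-positive cells held an adaptor UMI in controls, and 12.5%, 14.0% and 6.12% in libraries labelled IE-HuR-/-. A Cd5 or Cd6 UMI was found in 83.3%, 50% and 64.3%, and in 82.1%, 78.9% and 75.5%. Cd8b1-negative cells are given by library further below. Epithelial barcodes held a Tyrobp or Fcer1g UMI in 5.1% and a Cd5 or Cd6 UMI in 0.407% of cases, so the adaptor share of cells with 4 or more Cd8b1 UMIs was no higher than this background. In the same cell the gene pairs seldom met: 599 members held an adaptor UMI alone, 187 a Cd5 or Cd6 UMI alone, 13 both and 85 neither. Of those 13 cells, 0 came from the controls. The 52 members with exactly 1 Cd8b1 UMI fell between the others in both shares.

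Across all RNAs, the summed counts of both classes of each library were compared with the library as a block, and 517 of 5025 RNAs tested passed an adjusted p under 0.05 (10.3%; edgeR's quasi-likelihood test, Benjamini-Hochberg adjusted), 242 higher (4.82%) and 275 lower (5.47%) in Cd8b1-positive cells. Without Cd8b1 and the gate genes there were 513, 241 higher and 272 lower. In Cd8b1-positive cells 6 of 7 costimulatory and surface genes were higher, and of 11 natural killer type receptor and adaptor genes 9 were lower and 2 higher.

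The list of T cell costimulatory and surface genes known to be low on natural intraepithelial lymphocytes had 7 of 9 genes with enough counts to test, of which 6 rose and 0 fell, with a median log2 difference of 2.70 against -0.01 over all RNAs tested. Cd6 was at 10.4, 6.05 and 4.74 CPM in Cd8b1-negative cells of the controls and 46.6, 59.5 and 61.4 in those of the libraries labelled IE-HuR-/-. In Cd8b1-positive cells of the same libraries it was at 244, 262, 146, 322, 381 and 454. Every Cd8b1-positive sum lay above every Cd8b1-negative sum (log2 difference 3.13, SE 0.187, adjusted p = 5.40e-59). Thy1, the CD90 glycoprotein, was at 1.73, 4.03, 2.37, 39.1, 64.2 and 54.4 CPM in Cd8b1-negative and 341, 175, 352, 334, 263 and 345 in Cd8b1-positive cells, in the same order of libraries. It too did not overlap (3.23, SE 0.616, adjusted p = 0.0349), although its call was lost without control 2 (adjusted p = 0.0566), IE-HuR-/- 1 (0.128) or IE-HuR-/- 3 (0.115), with log2 differences of 3.17 to 3.47. Il7r, the interleukin-7 receptor alpha chain, rose by 3.67 (14.6 to 215 CPM), Cd5 by 2.57, Cd2, an adhesion receptor, by 2.70, and Cd226, an activating receptor, by 1.91.

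The other large rises were of the same order. Ms4a4b, a T cell membrane protein, was at 13.8, 12.1, 4.74, 31.7, 65.8 and 28.1 CPM in Cd8b1-negative and 650.0, 569, 765, 560.1, 621 and 345 in Cd8b1-positive cells. The classes were far apart in every library (log2 difference 4.31, SE 0.251, adjusted p = 1.36e-13). BE692007 rose by 3.75, and Itgal, the alpha chain of the integrin LFA-1, by 3.25 (7.59 to 90.7 CPM). Themis, which acts in T cell receptor signalling during thymic selection, rose by 2.76, the adaptor gene Sh3kbp1 by 2.66 and the nuclear receptor gene Rora by 2.63. Among 12 T cell receptor signalling genes tested, 4 rose and 1 fell, with a median of 0.22. Lat, the membrane scaffold of receptor signalling, went from 83.8 to 338 CPM (log2 difference 2.06), Cd247, the CD3 zeta chain, rose by 1.06, Grap2 by 0.86, and the phosphatase gene Ptpn22 fell by 0.40.

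Natural killer type receptors and adaptors went the other way. Of 26 listed genes 11 could be tested, of which 9 fell and 2 rose, with a median of -2.21. Fcer1g was at 1752, 1579, 1940.0, 1419.9, 1559.8 and 1516 CPM in Cd8b1-negative cells, and at 0, 481, 243, 75.5, 138 and 22.7 in Cd8b1-positive cells. The highest Cd8b1-positive value, in control 2, rests on 11 UMIs in the sum of 6 cells and was still below the lowest Cd8b1-negative value (log2 difference -3.86, SE 0.474, adjusted p = 0.00618). Tyrobp fell by 3.82 (1317 to 127 CPM), Klrd1, the CD94 chain of inhibitory and activating receptors, by 2.21 (1020.3 to 242), and Cd7, an immunoglobulin-family receptor, by 1.46 (3233 to 1156). Klra5, a Ly49 family lectin receptor, had 1 UMI in all Cd8b1-positive cells and 36 to 151 per library in Cd8b1-negative cells. The remaining falls of the list were Klrb1a (-3.19), Klre1 (-2.41), Klrb1c (-1.71) and Cd244a (-1.28), all receptor genes. Hcst, the adaptor DAP10, rose by 0.56 and the receptor gene Cd160 by 0.60.

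Several genes outside the lists were much lower in Cd8b1-positive cells. Dnm3, a dynamin, had 190 UMIs in Cd8b1-negative and 0 in Cd8b1-positive cells. The latter level was at least 18.4-fold lower when 3 counts over the group were taken as the floor. Gm156 was at 204, 127, 102, 363, 338 and 351 CPM in Cd8b1-negative cells and 0, 0, 0, 19.9, 13.1 and 0 in Cd8b1-positive cells. In both classes its higher sums came from libraries labelled IE-HuR-/-. Napsa, an aspartic protease, fell by 4.88, Itih5, a heavy chain of the inter-alpha-trypsin inhibitor family, by 3.99, Clnk, a SLP-76 family adaptor, by 3.81, the tyrosine phosphatase gene Ptpn5 by 3.65 and Sh2d1b1, an adaptor of SLAM family receptors, by 3.35. These 5 genes averaged 1.21 to 16.9 CPM in Cd8b1-positive cells and 58.3 to 155 CPM in Cd8b1-negative cells.

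Cytotoxic effector genes differed less. Of 12 tested, 4 fell and 1 rose, with a median of -0.34. Gzma, granzyme A, was at 25180.2, 24919.9, 29938, 27201, 30210.1 and 29523 CPM in Cd8b1-negative and 7442, 14304, 9381, 11222, 13656 and 15402 in Cd8b1-positive cells. It did not overlap between the classes (log2 difference -1.26, SE 0.0932, adjusted p = 1.65e-38). Gzmk, granzyme K, rose from 32.8 to 131 CPM (1.99). The granule genes Srgn (-0.42), Ctsw (-0.43) and Cst7 (-0.51) fell, and lost the call when members were thinned to 1000 UMIs per cell. The chemokine gene Ccl5 was the only one of 5 cytokine and chemokine genes to pass (-0.41), and its call was lost by DESeq2 (adjusted p = 0.158) and without control 2 (0.556) or control 3 (0.425). Within labels it differed by -0.82 in controls (adjusted p = 6.00e-05) and by -0.02 in libraries labelled IE-HuR-/-, where it was not called. Il2rb, the beta chain of the receptors for interleukin-2 and interleukin-15, fell from 550.2 to 108 CPM (-2.05) and was the only one of 6 cytokine receptors that passed.

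Homing and residency genes split. Of 18 tested, 5 rose and 3 fell, with a median of -0.03. Ccr9, the receptor for the small intestinal chemokine CCL25, went from 191 to 433 CPM (1.13), and Itga4 (1.60) and Itgb7 (0.70), the chains of the gut-homing integrin, rose with it, as did the chemokine receptor gene Cxcr3 (1.22). Rgs1, a regulator of G-protein signalling, fell by 0.93, Cd101, a surface glycoprotein, by 1.27, and Itga1, the alpha chain of a collagen-binding integrin, by 0.83, a call lost without control 2 (adjusted p = 0.335). Itgae, the CD103 chain that binds E-cadherin, was at 649.6 ± 75.6 and 542 ± 213 CPM and was not called (adjusted p = 0.655).

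Among lineage transcription factors, 4 of 10 fell and 1 rose. Ikzf2, encoding Helios, went from 753 to 159 CPM (-2.35), and Tox (-0.75) and Nr4a2 (-0.97) fell, together with Bcl2, the survival gene carried on the same list (809.6 to 245 CPM, -1.75). Id2 rose by 0.41. Of 13 genes of naive, memory and circulating T cells only 2 had enough counts, and Tcf7, encoding TCF-1, rose by 1.97 (19.4 to 79.3 CPM). Ccr7 and S1pr1, which mark naive and recirculating cells, were at 6.01 ± 9.16 and 12.5 ± 12.2 CPM in Cd8b1-positive cells (SD, n = 6). Inhibitory receptor genes had 4 of 6 falls and 1 rise, with Lag3 at -1.46, Entpd1, the ectonucleotidase CD39, at -2.40, Cd96 at -0.55 and Cd244a and Cd160 as above.

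Of 5 cell cycle genes 0 passed (0 at an unadjusted p under 0.05, 0 by DESeq2), and of 12 immediate-early and heat shock genes 0 passed (3 unadjusted, 0 by DESeq2), whereas 2 of 8 interferon-stimulated genes rose, Ifi27l2a (2.20) among them. Ribosomal protein genes, a list chosen after its values were seen, rose in 73 of 80 cases with a median of 0.49. Without TMM scaling the split of calls was 220 higher and 325 lower. DESeq2 called 173 higher and 183 lower, and of the listed RNAs named above it did not call Ptpn22 (adjusted p = 0.145), Cst7 (0.0578), Cd101 (0.0869), Id2 (0.177) and Ccl5.

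Markers of other cells were counted beside these differences. Of 13 epithelial genes only Epcam passed (-0.58), and the summed epithelial list was at 5167, 7655, 3107, 4747, 3577 and 5027 CPM in Cd8b1-positive and 5584, 7411, 3821, 4662, 4261 and 4625 in Cd8b1-negative cells. In every library the sums of the classes were closer to each other than the controls were among themselves. Ighm and Igha fell by 1.30 and 1.49 among 3 B and plasma cell genes, and Itgax fell by 1.20, with Csf1r, C1qb, Fcgr1, Adgre1, Flt3 and Cd209a at 0. Of 2 tested genes of natural killer cells and innate lymphoid cells, Kit fell by 1.61 and Klrb1c as given above, with Ncr1 and Il22 at 0. The part of these cells in the difference was not tested beyond these levels.

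**Figure D2:**
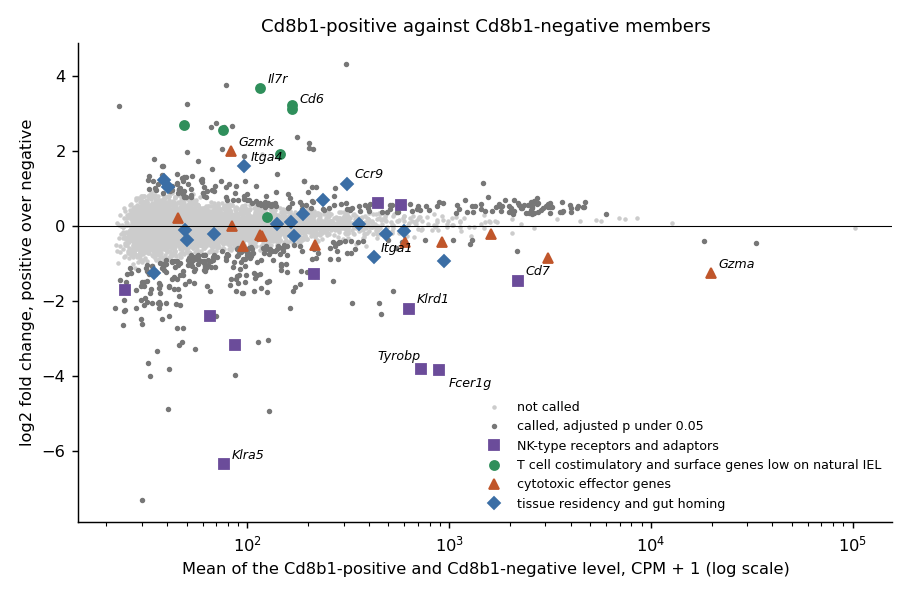
Log2 difference between Cd8b1-positive and Cd8b1-negative cells (y axis) against the mean level in CPM plus 1 on a log scale (x axis) for the 5025 RNAs tested, with 4 gene lists coloured. Costimulatory genes lie above 0, natural killer type genes mostly below it, and most other RNAs near it.

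**Figure D3:**
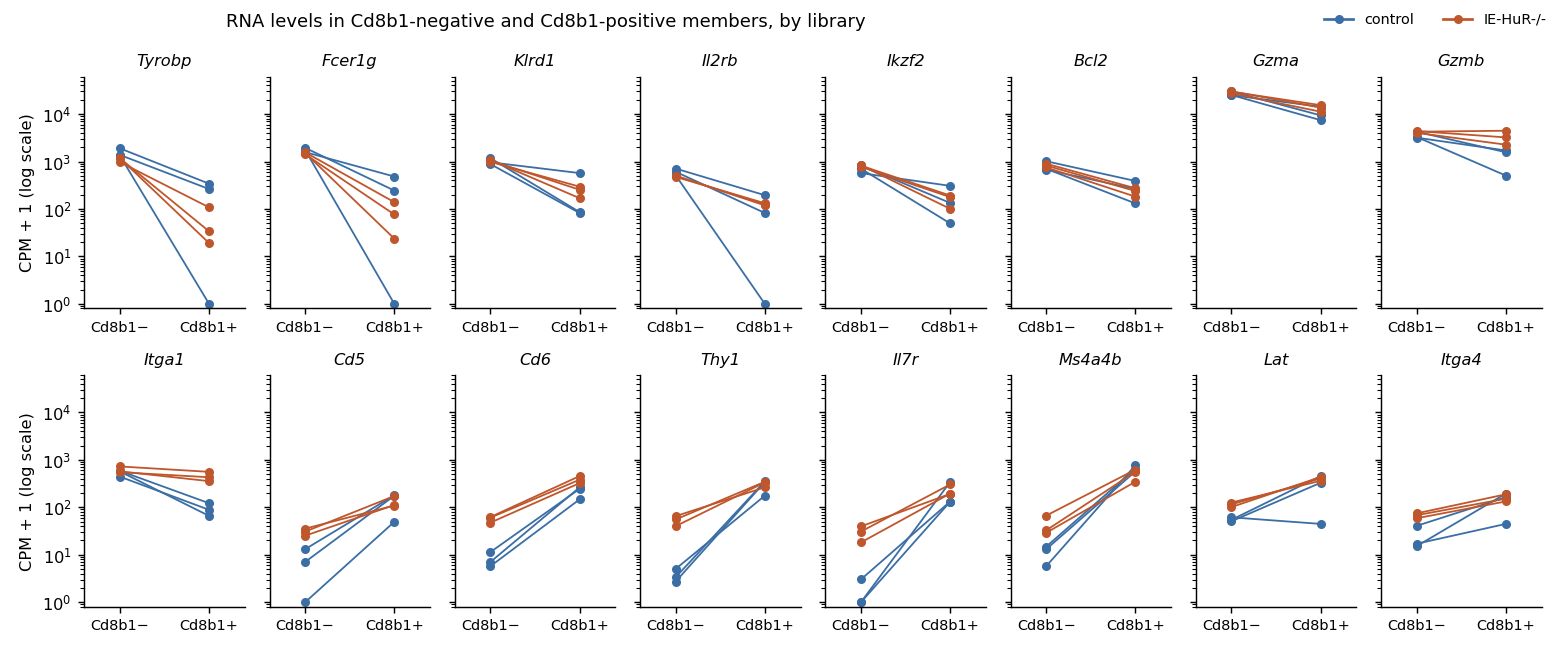
Levels of 16 genes in CPM plus 1 on a log scale (y axes) in Cd8b1-negative and Cd8b1-positive cells (x axes), with 1 line for each library joining its 2 classes and colours for the label. Lines for Cd6, Thy1 and Ms4a4b rise in all 6 libraries and those for Fcer1g, Tyrobp and Gzma fall in all 6.

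The class difference was also fitted within each label, on libraries that are not shared. The controls alone gave 222 calls of 3967 RNAs (5.6%), 126 higher (3.18%) and 96 lower (2.42%), and the libraries labelled IE-HuR-/- alone gave 457 of 5665 (8.07%), 230 higher (4.06%) and 227 lower (4.01%). Without Cd8b1 and the gate genes these were 219 and 455, and 174 RNAs were called in both, always in the same direction, which was 79.5% of the first set and 38.2% of the second. Only 3921 RNAs were tested in both labels, and these held 215 of the 219 and 379 of the 455. Klrd1 differed by -2.63 in controls and -2.06 in libraries labelled IE-HuR-/-, Ikzf2 by -2.47 and -2.30, Bcl2 by -1.63 and -1.81, and Lat by 2.57 and 1.87, all called in both. Fcer1g differed by -3.23 in controls without passing (adjusted p = 0.191) and by -4.13 in the others.

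Whether the class difference itself depended on the label was tested by an interaction term, which called 8 of 6071 RNAs (0.132%), 5 with a positive (0.0824%) and 3 with a negative term (0.0494%). The median over all RNAs was 0.14 on this scale, and DESeq2 called 2. Without TMM scaling there were 15, 5 positive and 10 negative. Thy1 differed by 6.59 between classes in controls and 2.59 in libraries labelled IE-HuR-/-, an interaction of -4.00 (SE 0.6, adjusted p = 1.68e-07), with Cd8b1-negative cells at 2.71 ± 1.19 and 52.6 ± 12.6 CPM and Cd8b1-positive cells at 289 ± 99.2 and 314 ± 44.5. Itga1 had a term of the other sign, at 532 ± 78.5 and 615 ± 96 CPM in Cd8b1-negative but 91.3 ± 28.4 and 447 ± 103 in Cd8b1-positive cells (2.11, SE 0.368, adjusted p = 1.88e-05). Gzmb, granzyme B, was at 3566 ± 582 and 4214 ± 184 CPM in Cd8b1-negative and 1258 ± 657 and 3311 ± 1096 in Cd8b1-positive cells (1.34, adjusted p = 1.03e-06), a call lost without control 1 (0.0838) or control 2 (0.144). Il7r (-4.51) rested on 1 UMI in Cd8b1-negative cells of the controls and lost its call without control 3 (0.373). The interaction of Fcgbp (1.97), a goblet cell mucus protein, came from 2328 CPM in Cd8b1-negative cells of control 2 against 117 to 228 in the other libraries, and without that library it was 0.71 (adjusted p = 0.775).

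The question whether CD8 alpha-beta T cells as a whole differed between the labels gave 151 calls of 7310 RNAs (2.07%), 68 higher (0.93%) and 83 lower (1.14%) in libraries labelled IE-HuR-/-, by edgeR's quasi-likelihood test. Many of the called RNAs were more abundant in epithelial barcodes than in members, 79 of 151 (52.3%) against 27.0% of all RNAs tested. They made up 63 of the 83 falls and 16 of the 68 rises. DESeq2 gave 75 calls, and leaving out control 1 gave 71 and leaving out control 3 gave 267.

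Epithelial RNAs led both ends. Acta1, skeletal muscle alpha-actin, had 0 UMIs in the control members and 92.6, 83.8 and 94.9 CPM in those of the libraries labelled IE-HuR-/-, at least 49.9-fold higher with a floor of 3 counts over the controls. In epithelial barcodes it was at 20.5 ± 2.21 and 1324 ± 19.5 CPM. Duoxa2, a maturation factor of a dual oxidase, rose by 2.80 in members (8.42 to 61 CPM) and was at 63.6 and 401 CPM in epithelial barcodes. Cyp3a11, a drug-metabolising cytochrome P450, was at 293, 461 and 208 CPM in control members and 40.6, 39.2 and 41.8 in the others (log2 difference -3.01, adjusted p = 0.0357), and at 2163 and 428 CPM in epithelial barcodes. Its call was lost without control 1 (adjusted p = 0.107) or without any 1 of the libraries labelled IE-HuR-/- (0.197 to 0.21). Cyp2b10 (-2.81), Reg1 (-2.62), Cyp3a25 (-2.58) and Cyp2j6 (63.4 to 15.9 CPM), also epithelial, were the next largest falls among RNAs with at least 50 CPM in 1 group, the minimum for the largest changes named here. Invariant chain Cd74 and the class II genes H2-Aa, H2-Ab1 and H2-Eb1 rose as 4 of 5 tested, Cd74 from 25.5 to 107 CPM in members beside 384 and 2006 CPM in epithelial barcodes. The part of free epithelial RNA in these differences was not tested.

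**Figure D4:**
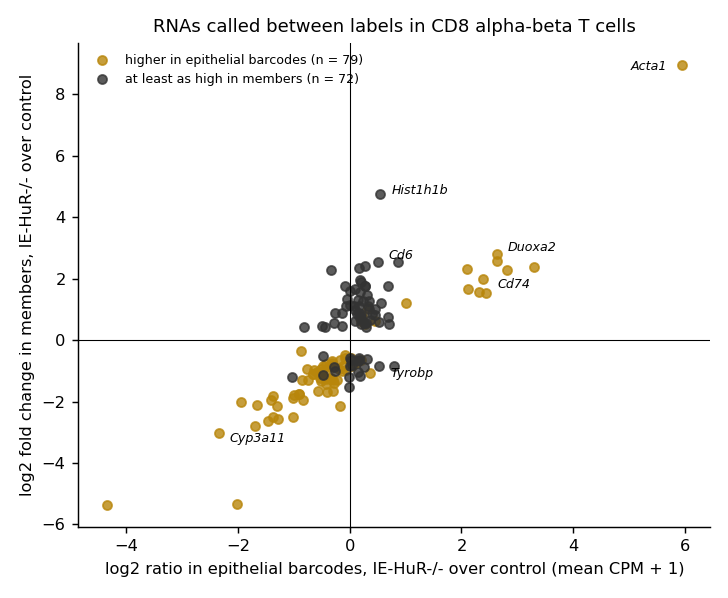
Log2 difference between labels in members (y axis) against the log2 ratio of the label means in epithelial barcodes of the same libraries (x axis) for the 151 RNAs called between labels, coloured by whether the RNA is higher in epithelial barcodes (79) or at least as high in members (72). The value of Acta1 depends on the prior count because its controls are at 0, and Cd6 stands high in members.

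When only the 5333 RNAs at least as high in members as in epithelial barcodes were tested, 72 passed (1.35%), 48 higher (0.9%) and 24 lower (0.45%) in libraries labelled IE-HuR-/-. The set was chosen on means over both labels, so an RNA could enter through the label where it was high. Ly6a, at 4.63 CPM in control members and 25.6 in the others, had an epithelial mean of 4.76. Bcl2l15, at 67.9 and 37.7 CPM, had one of 50.1. The values and list counts that follow are from the test over all 7310 RNAs. In the restricted test Ccr9 also passed (0.53, adjusted p = 0.013), and Mcm5 and Nr4a2 did not. Cd6 was at 32.8, 17.4 and 27.8 CPM in controls and 134, 163 and 171 in libraries labelled IE-HuR-/-. The groups were far apart (log2 difference 2.53, SE 0.207, adjusted p = 1.23e-12 over all 7310 RNAs). Thy1 went from 35.1 ± 24 to 132 ± 3.62 CPM (1.89, adjusted p = 7.97e-05), Cd5 from 16.5 to 60 (1.75) and Cd226 from 59.8 to 112 (0.88), so that 4 of 7 costimulatory genes rose and 0 fell, with a median of 1.75 against -0.00 over all RNAs. The call of Cd226 was lost without any 1 library other than control 3. Of 18 homing and residency genes 4 rose and 0 fell, among them Itga4 (1.28), Itgb7 (0.77) and Jaml (0.43), an adhesion molecule of epithelial T cells. Lat (1.26) and Themis (1.58) rose among 12 receptor signalling genes. Natural killer type genes gave 4 falls and 2 rises of 15, with Tyrobp at -0.85 (1387 to 782 CPM), Fcer1g at -0.61 (1592 to 1064), Klra5 at -1.51 and Klrb1a at -0.88, and Klre1 at 1.32 and Hcst at 0.43. Il2rb fell by 0.58, the only one of 11 cytokine receptors called. DESeq2 called 3 of the 7 costimulatory, 5 of the 15 natural killer type and 3 of the 18 homing genes, without Cd226 (adjusted p = 0.124), Hcst (0.150) and Jaml (0.17).

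Cytotoxic genes gave 3 rises of 12, Gzmk (1.68), Prf1, encoding perforin (0.85), and Serpinb6b, a serine protease inhibitor (0.71). Of 9 cell cycle genes, Top2a (25.6 to 90.3 CPM, 1.76), Mki67 (1.46) and Mcm5 (1.02) rose, with a list median of 0.95. Hist1h1b, a linker histone gene, was at 7.8, 1.93 and 0 CPM in controls and 128, 116 and 65.8 in libraries labelled IE-HuR-/- (log2 difference 4.75, adjusted p = 1.51e-05). Its epithelial level was 2.32 and 3.87 CPM, below all members of the libraries labelled IE-HuR-/- and within the range of the control members. Of 11 interferon-stimulated genes 2 rose, Ly6a (2.53) among them, and Nr4a2 (0.59) among 13 transcription factor genes. Fewer of these passed by DESeq2, which called 1 of the 12 cytotoxic genes (Gzmk, with Prf1 at an adjusted p of 0.0800 and Serpinb6b at 0.133), 1 of the 9 cell cycle genes (Top2a, with Mki67 at 0.11 and Mcm5 at 0.44), 0 of the 11 interferon-stimulated genes and 0 of the 13 transcription factor genes. By edgeR 0 of 5 cytokine and chemokine genes passed (1 at an unadjusted p under 0.05, 1 by DESeq2), 0 of 6 inhibitory receptors (2 and 0) and 0 of 13 immediate-early and heat shock genes (4 and 0). These values hold both the level within a class and the share of each class, and fewer cells of a kind and less RNA per cell cannot be told apart in such sums.

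Within Cd8b1-negative cells, 127 of 6657 RNAs passed (1.91%), 49 higher (0.736%) and 78 lower (1.17%), of which 80 were more abundant in epithelial barcodes. A separate test of only the RNAs at least as high in members as in epithelial barcodes, with p-values adjusted over these alone, called 52 of 4865 (1.07%), 36 higher (0.74%) and 16 lower (0.329%). These RNAs too were chosen on means over both labels. Acta1, Hist1h1b, Thy1, Cd6 and Duoxa2 were the largest rises, and Reg1, Cyp2b10, Cyp3a11, Cyp3a25 and Ces2a the largest falls. Thy1 had 1, 2 and 1 UMIs in the controls and 21, 41 and 31 in libraries labelled IE-HuR-/-, a difference of 4.15 (SE 0.494, adjusted p = 5.82e-10). CD90, its protein, was the marker stained with CD45 in the check before loading. Cd6 was at 7.05 ± 2.94 and 55.8 ± 8.07 CPM (2.85, adjusted p = 2.59e-08), Cd5 at 6.04 ± 6.04 and 29.5 ± 5.12 (2.08, adjusted p = 0.00471) and Ms4a4b at 10.2 ± 4.82 and 41.8 ± 20.8. The costimulatory list had 4 rises of 5 tested and 0 falls, with a median of 2.08 against -0.01 over all RNAs. DESeq2 called 2 of the 5, with Cd5 at an adjusted p of 0.122 and Cd226 at 0.342.

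The same cells gave 1 rise and 3 falls of 14 natural killer type genes. Klre1 was at 69.0, 32.3 and 52.2 CPM in controls and 151, 149 and 181 in libraries labelled IE-HuR-/-, without overlap (1.58, SE 0.195, adjusted p = 1.94e-09). Klra5 was at 261, 149 and 211 against 121, 103 and 63.2, also without overlap (-1.16, adjusted p = 0.00101). Tyrobp fell by 0.51, a call lost without IE-HuR-/- 1 (adjusted p = 0.0644). Rgs1 (0.40), Itgb7 (0.69) and Itga4 (1.38) rose among 18 homing and residency genes, Top2a (1.72) and Mki67 (1.43) among 9 cell cycle genes, and the immediate-early gene Jun (-0.57) and heat shock gene Hspa1a (-0.91) fell among 13. DESeq2 called 3 of the 14 natural killer type genes, 1 of the 18 homing genes, 1 of the 9 cell cycle genes (Top2a) and 0 of the 13 immediate-early and heat shock genes. Of 12 cytotoxic genes edgeR called 3 rises and DESeq2 called 0. Gzma, at 26679 ± 2825 and 28978 ± 1577 CPM, was not called (adjusted p = 0.762).

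Markers of other cells differed by label in the same Cd8b1-negative sums. The erythroid list went from 151 ± 61.1 to 56.0 ± 1.95 CPM, with Hbb-bs its most abundant gene, and both genes tested fell, Hba-a2 by 1.87 and Hbb-bs by 1.29. The macrophage and dendritic list went from 67.2 ± 8.7 to 119 ± 22.8 CPM, nearly all of it Itgax (0.82), with Csf1r, C1qb, Fcgr1, Adgre1, Flt3 and Cd209a at 0. Of 5 class II genes 4 rose, Cd74 by 1.99, and their list went from 91.5, 92.8 and 68.8 to 322, 276 and 332 CPM. Of 13 epithelial genes Epcam (-0.55), Alpi (-1.24) and Sis (-0.85) fell, with the list, led by Apoa1, at 5605 ± 1795 and 4516 ± 222 CPM. Ighm fell by 1.00. DESeq2 called 0 of the 2 erythroid genes and did not call Itgax, the 1 macrophage and dendritic gene tested. It called 3 of the 5 class II, 2 of the 13 epithelial and 1 of 3 B and plasma cell genes. The part of these markers in the label difference was not tested.

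Cd5, Cd6 and the adaptor genes were also counted by cell. A Cd5 or Cd6 UMI was found in 3.28%, 1.68% and 2.3% of Cd8b1-negative cells of the controls and 11.0%, 11.2% and 12.6% of those of libraries labelled IE-HuR-/-, which do not overlap (2.42% ± 0.806 and 11.6% ± 0.869, SD, n = 3, exact permutation p = 0.1, the smallest possible). A Tyrobp or Fcer1g UMI was found in 88.5%, 89.1% and 90.8% and in 78%, 85.6% and 82.4%, also without overlap (89.5% ± 1.19 and 82% ± 3.83, exact permutation p = 0.1). The part of Cd8b1-expressing cells with no Cd8b1 UMI in the label difference of the Cd8b1-negative cells was not tested.

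In Cd8b1-positive cells, with 6 to 14 cells per control library, 15 of 2247 RNAs passed (0.668%), 8 higher (0.356%) and 7 lower (0.312%) in libraries labelled IE-HuR-/-. DESeq2 gave an adjusted p to only 156 of the 2247 and called 1 higher and 23 lower, and without TMM scaling there were 9 higher and 4 lower. Among the 1690 RNAs at least as high in members as in epithelial barcodes, again by means over both labels, 23 passed (1.36%), 5 higher (0.296%) and 18 lower (1.07%). Of the 5, 1 was Trbc1, a gate gene that is not read as a finding, which leaves 4. The 18 were 17 ribosomal protein genes and Eef1b2, a translation elongation factor gene. Over all RNAs tested, ribosomal protein genes gave 3 falls of 79, with a median of -0.38 against 0.03. Itga1 was at 65, 87.5 and 121 CPM in controls and 429, 355 and 558 in libraries labelled IE-HuR-/-. All 3 of the latter lay above the controls (2.17, SE 0.336, adjusted p = 2.36e-05), and DESeq2 gave it no adjusted p. Ccl5, the only one of 3 cytokine and chemokine genes called, went from 11835 ± 3225 to 20038 ± 2369.5 CPM (0.74), a call lost without any 1 library other than control 1 and IE-HuR-/- 2. Reg3b (2.20), Mt1 (3.36) and Fabp6 (1.99), an antimicrobial lectin, a metallothionein and a bile acid binding protein, rose, and Cyp3a11 (-3.46), Lct (-2.38), Mme (-1.70) and Selenop (-1.19) fell. Each of these 7 was more abundant in epithelial barcodes, where for example Reg3b was at 2295 and 11905 CPM. Rps20, a ribosomal protein gene, fell by 0.63, a call lost without any 1 library other than control 1.

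In Cd8b1-positive cells edgeR called 0 of 7 costimulatory, 7 natural killer type, 11 cytotoxic and 12 receptor signalling genes between labels, with 1, 0, 5 and 3 at an unadjusted p under 0.05. DESeq2 called 0 of them, with an adjusted p for only 0, 1, 4 and 1. Their medians were -0.07, 0.04, 0.65 and 0.35, against 0.03 over all RNAs. Cd6 was at 244, 262 and 146 CPM in controls and 322, 381 and 454 in libraries labelled IE-HuR-/-, and Thy1 at 341, 175 and 352 against 334, 263 and 345, and Thy1 overlapped between the labels whereas Cd6 did not.

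Members were last compared with gamma-delta T cells, the other T cells known to be abundant in this epithelium. The 116 cells with a Trdc UMI and no Trbc1, Trbc2, Cd4 or Vil1 UMI numbered 12, 25 and 8 in controls and 27, 17 and 27 in libraries labelled IE-HuR-/-. In all, 193 of 4453 RNAs passed (4.33%), 155 higher (3.48%) and 38 lower (0.853%) in members, or 125 and 53 without TMM scaling. Ribosomal protein genes gave 77 of the rises with a median of 0.56, and 6 calls were gate genes or Cd8b1. Tcrg-C1, a constant gene of the T cell receptor gamma chain, was the largest fall, at 824 ± 185 CPM in gamma-delta cells and 233 ± 43.2 in members (SD, n = 6; log2 difference -1.84, SE 0.142, adjusted p = 1.74e-35). Rbm15b (-1.37), Map4k2 (-1.32), Dennd1a (-1.18) and Vps54 (-1.12) followed. Klre1 was the largest rise (25.4 to 83.5 CPM, 1.88), then Dut (1.59) and Mcm7 (1.48), both of DNA replication, Ifi27l2a (1.42) and Slc25a4 (1.17). Of 13 epithelial genes 4 were lower in members, Fabp1 (-0.56), Fabp2 (-0.49), Apoa1 (-0.45) and Apoa4 (-0.34), and the part of epithelial RNA in this comparison was not tested. Of the called RNAs named or listed here, Tcrg-C1 kept its call under every alternative run and 19 lost theirs under at least 1.

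This gate leaves out most Trdc-positive T cells, since 1526 of 1642 also held a Trbc UMI. The 1382 barcodes that failed the member gate by a Trdc UMI alone were therefore used as a second comparison group, chosen after seeing the data. They held a median of 5 Trdc UMIs and 136 of them (9.84%) held 1. Tyrobp was detected in 72.7% of them, Fcer1g in 88.6%, Cd8b1 in 3.98% and Cd5 in 0.145%. Against these cells, most differences just named were not called. Dut was at 0.28, Mcm7 at 0.19, Ifi27l2a at 0.61, Slc25a4 at 0.18, Rbm15b at -0.09, Dennd1a at -0.17 and Vps54 at -0.09, and Map4k2 (0.13), Fabp2 (0.10), Apoa1 (0.14) and Apoa4 (0.15) changed sign, with Fabp1 at 0.00. Klre1 (1.26) and Tcrg-C1 (-2.27) were called. In all, members differed in 210 of 8044 RNAs (2.61%), 129 higher (1.6%) and 81 lower (1.01%). Cd8b1-positive members differed in 593 of 6778 (8.75%), 258 higher (3.81%) and 335 lower (4.94%). Cd8b1-negative members differed in 44 of 7558 (0.582%), 23 higher (0.304%) and 21 lower (0.278%). These counts may include gate genes and are not given without them. Trdc, by which the groups were split, was at 0 CPM in members and 1146 ± 104 in the Trdc-positive cells (SD, n = 6). Cd8b1-negative members differed from the Trdc-positive cells by 0.13 in Tyrobp (adjusted p = 0.249), 0.02 in Fcer1g (0.934), 0.06 in Klrd1 (0.834) and 0.02 in Gzma (0.910). Called differences included Klre1 (1.58), Dnm3 (0.90) and Ikzf2 (0.26), which were higher, and Themis (-1.26), Cd247 (-1.03), Nr4a1 (-1.28) and Gzmb (-0.14), which were lower in Cd8b1-negative members.

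Tcrg-C1 was lower in Cd8b1-negative members than in these Trdc-positive cells by 2.01 (277 ± 41.0 against 1127 ± 86.6 CPM, SD, n = 6, adjusted p = 4.56e-52) and was at 47.4 ± 34.4 in Cd8b1-positive members. Between the classes of members it differed by -2.19 (adjusted p = 4.11e-26). The other gamma constant genes lay closer together. Tcrg-C2 was at 451 ± 55.3 CPM in Cd8b1-negative members, 416 ± 145 in Cd8b1-positive members and 515 ± 37.1 in the Trdc-positive cells, and Tcrg-C4 at 347 ± 46, 219 ± 108 and 399.6 ± 36.8. Tcrg-C3 had 2, 0 and 3 UMIs. Trac was at 664 ± 76.9 CPM in members and 347 ± 37.5 in the Trdc-positive cells. How many Cd8b1-negative members were gamma-delta cells whose Trdc RNA was missed was not tested.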

How the data were processed

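Filtered gene-by-cell matrices of UMI counts, 1 for each of 3 control and 3 IE-HuR-/- libraries, were used as deposited by the authors. Their headers name cellranger 6.1.2, and the submitters' processing notes name mm10, Cell Ranger and Seurat. The labels give a 5′ kit and the methods a 3′ kit. All matrices list 32285 genes and hold barcodes of at least 500 UMIs. Counts of members were summed per library and class and tested by quasi-likelihood (edgeR 4.0.16, R 4.3.3) after TMM scaling and a low-count filter (filterByExpr, minimum 10 counts, 15 in total), with p-values adjusted by Benjamini-Hochberg over all RNAs tested and calls at 0.05, and the code was tested on simulated data. Shares were compared by exact permutation. Named RNAs were the 10 largest called rises and falls by Cd8b1 (same direction in all 6 libraries) and the 5 largest in the label and gamma-delta comparisons, at 50 CPM or more in 1 group, the interactions of smallest p, members of gene lists, the 5 leading Trav and Trbv genes and Elavl1; Tcrg-C1, Ms4a4b and Nr4a1 elsewhere were chosen after their values were seen. The members and lists were chosen with earlier results of these data known. No doublet caller was run; none of the members was among the 5% of barcodes with most UMIs. DESeq2 1.42.0, other filters and thinning were alternatives, and 8 were added after seeing the data. Some genes are not reported here.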

Additional observations from a re-analysis of the deposited data

Results flagged for a closer look

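For 8 RNAs the difference between Cd8b1-positive and Cd8b1-negative cells differed between the labels, by a test of the interaction itself. The values are log2 differences of differences, positive where the Cd8b1-positive cells were relatively higher in libraries labelled IE-HuR-/-, against a median of 0.14 over all RNAs. DESeq2 called 2 of the 8, Thy1 and Itga1, and these kept their call under every alternative run. Thy1 was at -4.00, Il7r at -4.51 and Ms4a4b at -2.25, each with a higher level in the Cd8b1-negative cells of libraries labelled IE-HuR-/- than in those of the controls. Ms4a4b was at 661 ± 98.4 and 509 ± 145 CPM in Cd8b1-positive cells and 10.2 ± 4.82 and 41.8 ± 20.8 in Cd8b1-negative cells (SD, n = 3, controls first), and its call was lost by DESeq2 and without control 3 or IE-HuR-/- 2. Gzmb was at 1.34, Itga1 at 2.11 and Ccl5 at 0.88, each with a higher level in the Cd8b1-positive cells of libraries labelled IE-HuR-/-. By DESeq2 the adjusted p was 0.248 for Gzmb, 0.999 for Ccl5 and 0.176 for Il7r, and without TMM scaling 0.798 for Gzmb and 0.816 for Ccl5. The call of Ccl5 was also lost without any 1 of the libraries labelled IE-HuR-/-. Ccl5 in Cd8b1-negative cells was at 20340.4 ± 2073 and 20814 ± 1036 CPM. Xcl1, the chemokine lymphotactin, was at 1.33. It was at 1222, 611 and 434 CPM in Cd8b1-negative cells of the controls and 211, 229 and 197 in those of libraries labelled IE-HuR-/-, and at 504, 569 and 60.7 against 262, 296 and 59 in Cd8b1-positive cells. The labels overlapped in Cd8b1-positive cells, and by edgeR the label difference was called neither there (-0.57, adjusted p = 0.920) nor in Cd8b1-negative cells (-1.89, adjusted p = 0.297), where DESeq2 did call it. The call of its interaction was lost by DESeq2 (adjusted p = 0.999), without TMM scaling (0.743), with at least 2000 UMIs per cell (0.0511) and without control 1, control 3, IE-HuR-/- 1 or IE-HuR-/- 2. Fcgbp, at 1.97, rested on control 2 and was not called by DESeq2 (adjusted p = 0.999).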

How the results depend on the processing

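The direction of every share was kept under all alternatives run, and leaving out 1 library gave log2 ratios of 0.55 to 0.90 for members among barcodes, 0.15 to 0.30 among T cells and 1.44 to 2.17 for Cd8b1-positive cells, where the two-sided exact permutation p, the one-sided p doubled, could not fall below 0.2. Calls by Cd8b1 (517) fell to 145 with members thinned to 1000 UMIs, 222 in the controls alone and 356 by DESeq2, and ranged from 408 to 546 without 1 library. Calls by label in all members (151) were 75 by DESeq2, 259 with no filter on low counts, 72 among RNAs at least as high in members as in epithelial barcodes and 71 to 267 without 1 library. In Cd8b1-positive cells (15) they were 24 by DESeq2, 9 with at least 2 Cd8a UMIs, 23 among RNAs at least as high in members and 3 to 18 without 1 library, 3 without IE-HuR-/- 1 or IE-HuR-/- 3. In Cd8b1-negative cells (127) they were 52 by DESeq2, 52 among RNAs at least as high in members and 76 to 226 without 1 library, 76 without control 1, 81 without IE-HuR-/- 1 and 226 without control 3. The interaction (8) gave 2 by DESeq2, 15 without TMM scaling and 5 to 16 without 1 library, 16 without control 2. The gamma-delta comparison (193) gave 315 with no filter, 126 with at least 2000 UMIs per cell, 593 and 44 for Cd8b1-positive and Cd8b1-negative members against cells failing by Trdc alone, and 136 to 195 without 1 library. The cause of these changes in the number of calls was not tested.

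Replicate numbers shared by the labels did not pair the libraries: deviations of same-numbered libraries correlated at 0.012, -0.033 and -0.047 over 4885 RNAs. With the replicate block, calls by label were 172 in all members, 5 in Cd8b1-positive and 160 in Cd8b1-negative cells. Elavl1 in Cd8b1-negative cells changed sign around 0, to 0.02 without TMM scaling, 0.01 with no filter, 0.09 without control 1 and 0.07 without IE-HuR-/- 2, with -0.09 the lowest value without 1 library. Against cells failing by Trdc alone, Map4k2 (0.13), Nkg7 (-0.11), Ccl5 (-0.13), Fabp1 (0.00), Fabp2 (0.10), Apoa1 (0.14) and Apoa4 (0.15) changed sign. Of the called RNAs named or listed, 38 of the Cd8b1 comparison kept their call under every alternative and 27 lost it under at least 1. By label these were 29 and 14 in all members, 4 and 8 in Cd8b1-positive cells and 19 and 22 in Cd8b1-negative cells. They were 2 and 5 for the interaction and 1 and 19 in the gamma-delta comparison. The interaction tally leaves out Ms4a4b, which also lost its call, as given above. Cd8b1-positive cells of the controls, 6 to 14 per library, limit every value that rests on them.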
